A study of Mus musculus with 12 samples.

Results

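The ATP-binding cassette (ABC) genes and the organic anion transporter genes of the Slco family were followed in the main olfactory epithelium (MOE), the sheet of the nose that holds the odour-sensing neurons. Members were the probe sets whose platform gene symbols all began with Abca to Abcg or Slco followed by a number. The rule took 64 probe sets for 63 genes out of 28944 experimental probe sets, 49 of them for 48 ABC genes and 15 for 15 Slco genes, and only Abcb5 had 2. RNA of whole MOE from H2be-KO mice (6 arrays) and WT mice (6 arrays), all aged 6 months, was measured on the Affymetrix array type Mouse Gene 1.0 ST, with RNA pooled from 2 animals per array. In H2be-KO mice the coding sequence of H2be, a histone H2B gene of olfactory neurons, is replaced in the germ line by the membrane reporter Gap43-mCherry, so every cell carries the allele. WT mice carry the intact gene, and both genotypes included males and females, with no sex given per array.

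ABC proteins use ATP to move lipids, bile salts, drugs and conjugated waste across membranes, mostly out of the cell or into an organelle. A few, such as Abce1 and the Abcf proteins, have lost the membrane part and serve translation. The Slco carriers take up bile salts, steroid conjugates, thyroid hormones and prostaglandins. In the MOE, sustentacular cells are rich in enzymes that oxidise and conjugate odorants and inhaled toxins, and efflux pumps carry such conjugates away, while the walls of blood vessels hold a further set of pumps and carriers.

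Signals were log2 values, and the array medians lay between 7.84 and 7.90. The markers fitted the labelled tissue, with means of 10.68 to 10.91 in H2be-KO and 10.78 to 10.84 in WT for 10 genes of mature olfactory neurons (13 probe sets), and of 11.16 to 11.33 and 11.15 to 11.32 for 9 sustentacular genes. The H2be probe set, annotated as H2bc21, fell by 0.24 on the log2 scale, at 11.65 ± 0.12 in H2be-KO and 11.89 ± 0.17 in WT (SD, n = 6 each, exact permutation p = 0.0195). Only the coding sequence was replaced, and which part of the transcript the probes cover was not analysed here. The mean of the Y-linked genes was 1.61 to 2.28 in arrays 1 to 3 and 9.35 to 9.71 in arrays 4 to 6 of both genotypes. The split into arrays 1 to 3 and 4 to 6 used below therefore follows the Y-linked signal, that of genes carried only by males. The enamel gene Amelx read 11.9 and 11.7 in H2be-KO replicates 1 and 6 and 5.11 to 6.03 in the other arrays. These differences between arrays are set beside the results that they touch.

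The 64 member signals spanned most of the range of the array. Their means over the 12 arrays ran between 5.25 and 10.69, with a median of 7.46 beside 7.87 for all experimental probe sets. There were 15 members above log2 9 and 26 at or under log2 7, and none lay under the log2 5 level below which probe sets were left out. Signals of different probe sets depend on their probes as well as on RNA amounts, so the order given here is an order of signals and not of transcript numbers.

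The brightest members were a mixed set of exporters, peroxisomal carriers and a translation factor. Abcc1, which exports glutathione conjugates, stood highest at 10.59, 10.66 and 10.75 in H2be-KO and 10.62, 10.68 and 10.84 in WT (lowest, median and highest array). It was followed by Abcg1, which passes cholesterol to lipoproteins (10.67 over the 12 arrays), and by the lysosomal protein Abca5 (10.67). Next came Abcd3, a carrier of fatty acyl groups into peroxisomes (10.65), and Abca13 (10.49).

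Abcd2, a second peroxisomal carrier, averaged 10.13, the lung surfactant lipid transporter Abca3 averaged 10.07, and the cyclic nucleotide exporter Abcc5 averaged 10.01. Abce1, which splits ribosomes after translation, averaged 9.93. Slco1a5 was the brightest of the Slco carriers, and 10th of the 64 in order, at 9.63. The genotype means of these 10 members differed by 0.04 to 0.21 on the log2 scale, and no difference among them passed the test described below.

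At the other end stood genes best known from other organs. Abcg5, a plant sterol pump of liver and gut, averaged 5.57, and Slco1c1, the thyroxine carrier of brain vessels, averaged 5.55. Abca16, a gene of the testis group, averaged 5.45, and Slco6b1 and Slco6d1, of a carrier family known from the testis, averaged 5.27 and 5.25. At these signals the arrays of a genotype scattered widely, and Slco6d1 alone read 5.30 ± 0.38 in H2be-KO and 5.21 ± 0.25 in WT (SD, n = 6 each).

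**Figure D1:**
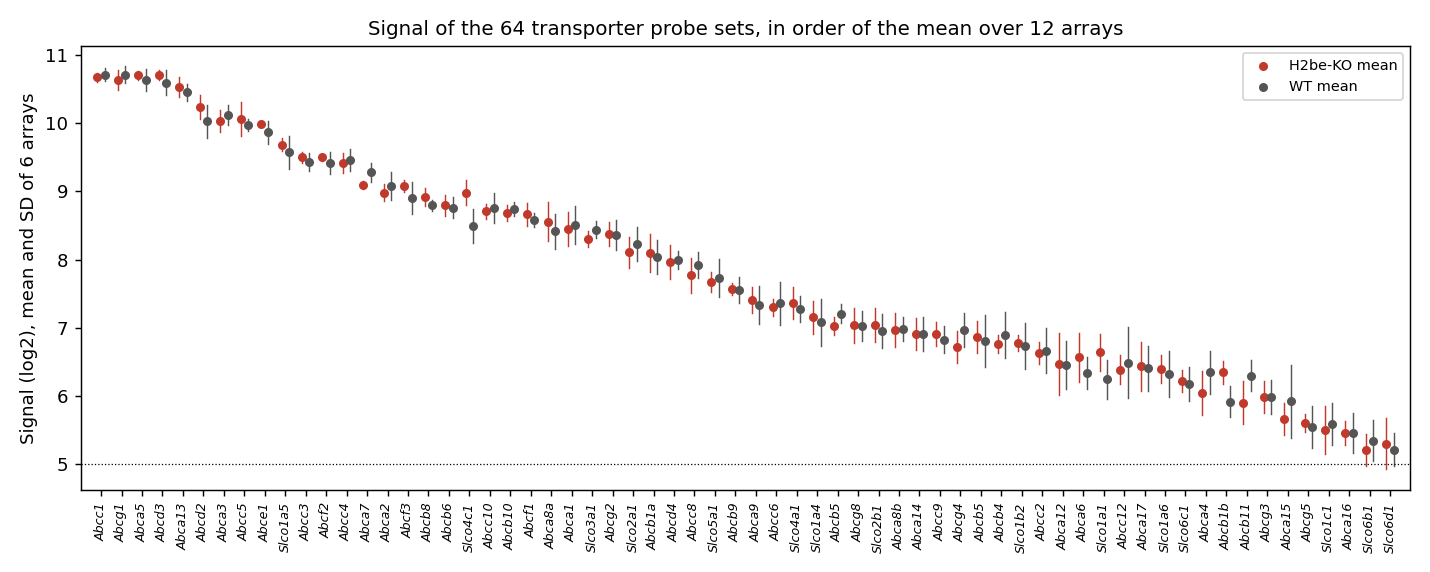
Mean log2 signal (y axis) of each of the 64 probe sets in H2be-KO (red, left of each pair) and WT (grey), with bars of 1 SD over 6 arrays, ordered by the mean over 12 arrays; the dotted line is log2 5. The signals ran between 10.69 for Abcc1 and 5.25 for Slco6d1, and the means of the genotypes lay close together for most members.

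The comparison of genotypes asked which transporter genes differed after loss of H2be. At an unadjusted limma p under 0.05, the level at which the study counted transcripts, 3 members rose in H2be-KO (Slco4c1, Abcb1b and Slco1a1), 2 fell (Abcb11 and Abca7) and 59 did not pass. Called members made up 7.81% of the 64, beside 5.55% of all 28151 probe sets tested, of which 3.78% were higher and 1.77% lower. With 64 members, the share of calls was near that background. In whole tissue, fewer cells of a type and less RNA per cell cannot be told apart. An exact permutation test over the 924 ways of choosing 6 of 12 arrays passed 6 of 64 members, beside 6.01% of all probe sets. No member had groups of arrays that did not overlap (background 0.0888% in each direction). After Benjamini-Hochberg adjustment 0 of the 28151 probe sets passed 0.05 in limma, the smallest adjusted p of a member was 0.753, and the 1563 calls are those at the unadjusted threshold.

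As a set, the members lay where all probe sets lay. The median log2 difference was 0.02 over the members and 0.02 over all probe sets tested. A positive difference was seen in 37 members (57.8%), beside 56.2% of all. The residual SD of a member was 0.223 at the median, beside 0.198 over all, and ran between 0.0824 and 0.413. With 6 arrays a genotype the median standard error (SE) of a member's difference was 0.122. A difference no larger than its SE would not be called, and larger ones could be missed. Abcd2 differed by 0.21 with an SE of 0.12 and did not pass in limma (exact permutation p = 0.121). Abca7, at -0.19 with a smaller SE of 0.08, did pass.

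The members that passed lie on 5 chromosomes, and the 200 bases before their starts are shown because they bear on how far these genes are alike, with Abcb1a, the neighbour of Abcb1b, for comparison. The sequences are from RefSeq on GRCm38.p6, on the strand of the gene, 5′ to 3′ and ending at the base before the outermost annotated start. They are at chr1:96872194-96872393 (Slco4c1, minus strand), chr5:8797947-8798146 (Abcb1b, plus), chr5:8566891-8567090 (Abcb1a, plus), chr6:141946963-141947162 (Slco1a1, minus), chr2:69342617-69342816 (Abcb11, minus) and chr10:79996253-79996452 (Abca7, plus). Capitals mark matches, on either strand, to the TATA box TATAAA, the GC box GGGCGG, the CCAAT motif, the E-box CACGTG, or GCGTG, which is the core bound by the dioxin receptor. Motifs may overlap.
Slco4c1: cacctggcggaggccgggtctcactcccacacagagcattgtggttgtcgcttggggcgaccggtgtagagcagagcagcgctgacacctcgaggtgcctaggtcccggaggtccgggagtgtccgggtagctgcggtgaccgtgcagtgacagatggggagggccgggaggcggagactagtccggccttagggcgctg
Abcb1b: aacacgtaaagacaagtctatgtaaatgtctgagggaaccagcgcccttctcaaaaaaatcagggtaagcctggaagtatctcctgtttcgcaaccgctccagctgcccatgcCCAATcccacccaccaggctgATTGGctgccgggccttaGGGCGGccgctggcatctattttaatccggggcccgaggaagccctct
Abcb1a: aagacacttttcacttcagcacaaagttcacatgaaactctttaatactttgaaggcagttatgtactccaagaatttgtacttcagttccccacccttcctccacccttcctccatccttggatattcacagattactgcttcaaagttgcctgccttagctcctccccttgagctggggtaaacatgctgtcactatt
Slco1a1: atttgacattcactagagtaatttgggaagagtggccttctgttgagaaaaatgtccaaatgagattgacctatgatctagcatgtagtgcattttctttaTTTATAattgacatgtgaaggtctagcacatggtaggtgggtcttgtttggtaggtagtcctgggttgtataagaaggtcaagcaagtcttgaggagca
Abcb11: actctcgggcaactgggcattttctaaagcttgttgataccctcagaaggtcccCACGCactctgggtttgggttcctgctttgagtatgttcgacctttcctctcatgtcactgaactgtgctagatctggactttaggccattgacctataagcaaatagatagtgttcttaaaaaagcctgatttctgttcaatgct
Abca7: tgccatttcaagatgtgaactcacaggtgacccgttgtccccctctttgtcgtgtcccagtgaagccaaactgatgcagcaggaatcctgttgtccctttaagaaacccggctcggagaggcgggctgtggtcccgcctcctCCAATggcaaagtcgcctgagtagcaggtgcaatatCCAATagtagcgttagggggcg

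These stretches were not of a kind. Slco4c1 had 67.5% G and C and 16 CG pairs with no match to any of the 5 motifs, whereas Slco1a1 had 39.5% and 0 CG pairs with 1 TATAAA match. Abcb1b had 55.5%, 9 CG pairs, 1 GC box and 2 CCAAT matches, and its neighbour Abcb1a had 43.5%, 0 CG pairs and no match. Abca7 held 2 CCAAT matches, and Abcb11 held 1 match to GCGTG.

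Of the 63 member genes, 51 had an entry among the RefSeq promoters, with 62 promoters in all. In the 200 bases before the start, TATAAA was found in 12.9% of the member promoters and 9.96% of all 32851, GGGCGG in 35.5% and 31%, CCAAT in 22.6% and 29.3%, CACGTG in 6.45% and 5.26%, and GCGTG in 24.2% and 24.7%. The member promoters ran between 36.5% and 77.5% G and C. A match is a description of the letters and not a bound site.

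Slco4c1, a carrier of cardiac glycosides and thyroid hormones known from the kidney, had the smallest p of the members. It read 8.75, 8.95 and 9.31 in H2be-KO and 8.03, 8.53 and 8.77 in WT (lowest, median and highest array). All H2be-KO arrays but replicate 4 lay above every WT array, and the lowest value was WT replicate 4. H2be-KO averaged 8.98 ± 0.19 and WT 8.50 ± 0.25 (SD, n = 6 each), a rise of 0.48 on the log2 scale or 1.40-fold (SE 0.12, exact permutation p = 0.0043). Slco4c1 passed the limma test with any array left out (differences of 0.39 to 0.54) and rose by 0.32 in arrays 1 to 3 and by 0.65 in arrays 4 to 6.

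Abcb1b, which encodes the lesser known of the pair of mouse P-glycoproteins that pump drugs and steroids out of cells, also rose. Its arrays read 6.03, 6.37 and 6.50 in H2be-KO and 5.64, 5.95 and 6.17 in WT (lowest, median and highest). H2be-KO replicate 2 fell among the WT values, and the other 5 H2be-KO arrays were above all of them. H2be-KO averaged 6.34 ± 0.16 and WT 5.92 ± 0.23 (SD, n = 6 each), a rise of 0.43 or 1.35-fold (SE 0.11, exact permutation p = 0.0065). The difference was 0.47 in arrays 1 to 3 and 0.38 in arrays 4 to 6, where it no longer passed in limma (0.0533).

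Slco1a1, a carrier of bile salts and steroid conjugates known from liver and kidney, lay near the dim end, 50th of the 64 in order. Abcb1b (56th) and Abcb11 (57th) were dimmer still. Slco1a1 read 6.16, 6.69 and 6.92 in H2be-KO and 5.82, 6.34 and 6.53 in WT (lowest, median and highest array). Again 5 H2be-KO arrays were above every WT array, and H2be-KO replicate 4 fell among the WT values. H2be-KO averaged 6.64 ± 0.27 and WT 6.24 ± 0.28 (SD, n = 6 each), a rise of 0.40 or 1.32-fold (SE 0.14, exact permutation p = 0.0368). In limma it did not pass in arrays 1 to 3, where it was 0.25, nor without the H2be-KO arrays with high Amelx, where it was 0.37.

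Abcb11, the bile salt export pump, was the member that fell most. It read 5.37, 5.95 and 6.19 in H2be-KO and 6.03, 6.31 and 6.60 in WT (lowest, median and highest array). The groups overlapped, with H2be-KO replicates 1, 5 and 6 below every WT array and the other 3 among the lower WT values. H2be-KO averaged 5.90 ± 0.32 and WT 6.30 ± 0.22 (SD, n = 6 each), so Abcb11 fell by 0.40 on the log2 scale (SE 0.14, exact permutation p = 0.0260). The difference was -0.12 in arrays 1 to 3, where it did not pass in limma, and -0.68 in arrays 4 to 6. Without the H2be-KO arrays with high Amelx it was -0.34 and did not pass. The difference between these 2 sets of arrays was itself -0.56 (exact permutation p = 0.08, adjusted over 37 members 0.925).

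Abca7, a phospholipid transporter of phagocytes and neurons, fell by less but with little spread. It read 8.98, 9.10 and 9.15 in H2be-KO and 9.14, 9.27 and 9.53 in WT (lowest, median and highest array). All H2be-KO arrays but replicate 4 lay below every WT array. H2be-KO averaged 9.09 ± 0.06 and WT 9.28 ± 0.14 (SD, n = 6 each), a fall of 0.19 on the log2 scale (SE 0.08, exact permutation p = 0.0043, limma p = 0.0315). This call was lost when replicate 2 or 6 of H2be-KO (limma p of 0.0552 and 0.0720) or replicate 2 or 4 of WT (0.0522 and 0.0571) was left out. It was also lost in arrays 1 to 3 (0.135), in arrays 4 to 6 (0.216) and without the H2be-KO arrays with high Amelx (0.110).

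**Figure D2:**
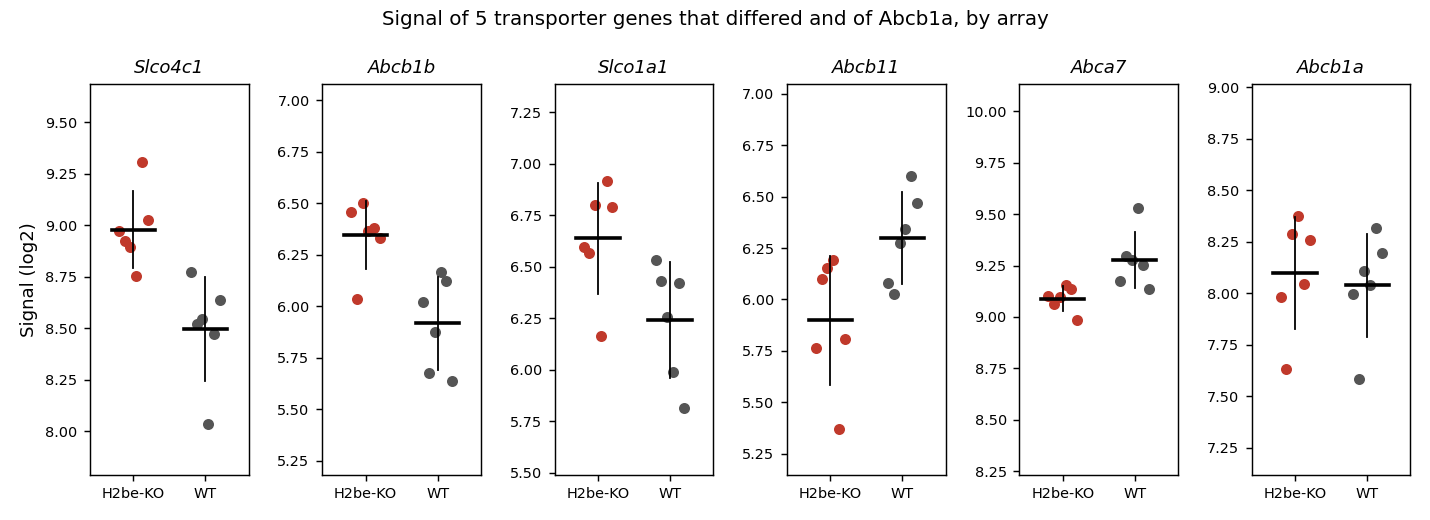
Log2 signal (y axis, the same span in each panel) of the 5 members that passed and of Abcb1a in each array, H2be-KO (red) left of WT (grey), with the mean (thick line) and 1 SD (thin line) of 6 arrays. For Slco4c1, Abcb1b and Slco1a1, 5 of 6 H2be-KO arrays stood above every WT array, and Abcb1a had 8.10 in H2be-KO and 8.04 in WT.

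The difference of Abcb1b was not shared by the genes beside it. Abcb1a, Abcb1b and Abcb4 follow each other on chromosome 5 in RefSeq, with no other Abc gene between them. Abcb1a, the P-glycoprotein of blood vessel walls, read 7.63, 8.15 and 8.37 in H2be-KO and 7.58, 8.07 and 8.31 in WT (lowest, median and highest array), a difference of 0.06 (95% confidence interval -0.24 to 0.35, exact permutation p = 0.688). Abcb4, the phosphatidylcholine exporter of bile, differed by -0.13 (interval -0.42 to 0.16, exact permutation p = 0.398), and its H2be-KO arrays all lay within the WT range. That difference was -0.25 without WT replicate 6 and -0.33 in arrays 1 to 3, and passed in limma in both.

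The difference of Abcb1b was also set against that of a neighbour within each array. The log2 signal of Abcb1b less that of Abcb1a was -1.75 ± 0.19 in H2be-KO and -2.12 ± 0.26 in WT (SD, n = 6 each), 0.37 higher in H2be-KO (exact permutation p = 0.0216, adjusted over 4 pairs 0.0433). Abcb1b less Abcb4 was 0.56 higher (exact permutation p = 0.0065, adjusted 0.0260). Slco1a1 less Slco1a4 was 0.33 higher (exact permutation p = 0.197, adjusted 0.197), and Slco4c1 less Slco4a1 was 0.39 higher (exact permutation p = 0.0541, adjusted 0.0722). These pairs were chosen after the calls were known and use the same arrays, so their p-values repeat in part the differences that chose them. They add no separate support for the calls, and the adjustment covers only the 4 pairs. Abcb1a and Abcb1b are close copies, and whether their probe sets share probes was not analysed here.

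The pumps that export drugs and conjugates numbered 13 probe sets, of which Abcb1b rose and 12 did not pass. Abcc3, an exporter of glucuronide conjugates, averaged 9.50 in H2be-KO and 9.43 in WT. Abcc4, which exports cyclic nucleotides and prostaglandins, averaged 9.41 and 9.46, and Abcc2, the conjugate pump of bile canaliculi, 6.63 and 6.67, in H2be-KO and WT. Abcg2, the breast cancer resistance protein, averaged 8.38 in H2be-KO and 8.36 in WT. The group had 7 positive differences and a median of 0.00.

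Abcb5, a relative of the P-glycoproteins, was singled out after its values were seen because the tests disagreed. Its brighter probe set read 6.82, 7.03 and 7.16 in H2be-KO and 7.0, 7.21 and 7.41 in WT (lowest, median and highest array), so the groups overlapped. The difference was -0.19 (limma p = 0.0551, exact permutation p = 0.0411). The dimmer probe set differed by 0.06 in the other direction (exact permutation p = 0.777).

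The bile and sterol pumps of liver and gut held 4 probe sets, of which Abcb11 fell. The sterol pumps Abcg5 and Abcg8 work as partners and lie side by side on chromosome 17. They differed by 0.05 and 0.01 (exact permutation p = 0.712 and p = 0.931).

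The cholesterol and lipid transporters of the Abca and Abcg families made up 14 probe sets, and Abca7 was the 1 call among them. Abcg1 averaged 10.63 in H2be-KO and 10.71 in WT. Abca1, which loads cholesterol onto apolipoproteins, averaged 8.45 in H2be-KO and 8.50 in WT. Differences in this group ran between -0.30 and 0.23, and 6 were positive. The cluster of Abca8b, Abca8a, Abca9, Abca6 and Abca5 on chromosome 11 had 4 positive differences of 5, at -0.02 to 0.23, and no call.

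Carriers of organelles held 7 probe sets and no call. In mitochondria, Abcb8 averaged 8.92 in H2be-KO and 8.80 in WT. In peroxisomes, Abcd3 averaged 10.71 and 10.59, and Abcd2, which carries very long fatty acyl chains, 10.24 and 10.03, in H2be-KO and WT. The Abcd2 difference of 0.21 did not pass in limma (exact permutation p = 0.121) but did with array weights (0.23), without H2be-KO replicate 4 (0.27) or without WT replicate 6 (0.26).

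The 4 ABC proteins of translation all had positive differences, with a median of 0.11, and none passed. Abce1 read 9.92, 9.99 and 10.06 in H2be-KO and 9.58, 9.88 and 10.02 in WT (lowest, median and highest array, exact permutation p = 0.0801). Abcf2, the brightest of the Abcf genes, averaged 9.50 in H2be-KO and 9.41 in WT. For both the lowest array was WT replicate 4, and without it the differences were 0.07 for Abce1 and 0.03 for Abcf2. They were 0.00 and -0.02 in arrays 1 to 3 and 0.25 and 0.19 in arrays 4 to 6.

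The regulators of potassium channels Abcc8 and Abcc9, set with Abcc6, gave 3 probe sets and no call, at differences of -0.16 to 0.08. The Abca genes known from the testis gave 4 probe sets and no call, at -0.26 to 0.03.

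Among the Slco1 carriers, which lie in a cluster on chromosome 6, Slco1a1 rose and 5 did not pass. Slco1a5 averaged 9.68 in H2be-KO and 9.57 in WT, and Slco1a4, the carrier of brain vessel walls, 7.15 and 7.08 in H2be-KO and WT. Slco1b2, which serves uptake into liver, averaged 6.78 and 6.73 in H2be-KO and WT. Slco1c1 had a difference of -0.08, the only negative value among the 6. The difference of Slco1a4 had a 95% confidence interval of -0.26 to 0.40, which takes in that of Slco1a1.

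The Slco2 to Slco5 carriers numbered 6, and Slco4c1 alone passed. Slco2a1, which takes up prostaglandins, averaged 8.11 in H2be-KO and 8.22 in WT. Slco3a1 averaged 8.30 in H2be-KO and 8.44 in WT, and its difference of -0.13 (limma p = 0.139, exact permutation p = 0.0952) did not pass. Slco2b1 and Slco5a1 differed by 0.09 and -0.06. The 3 Slco6 carriers gave no call, at differences of -0.14 to 0.09, and Slco6c1 was the brightest of them at 6.22 in H2be-KO and 6.17 in WT.

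**Figure D3:**
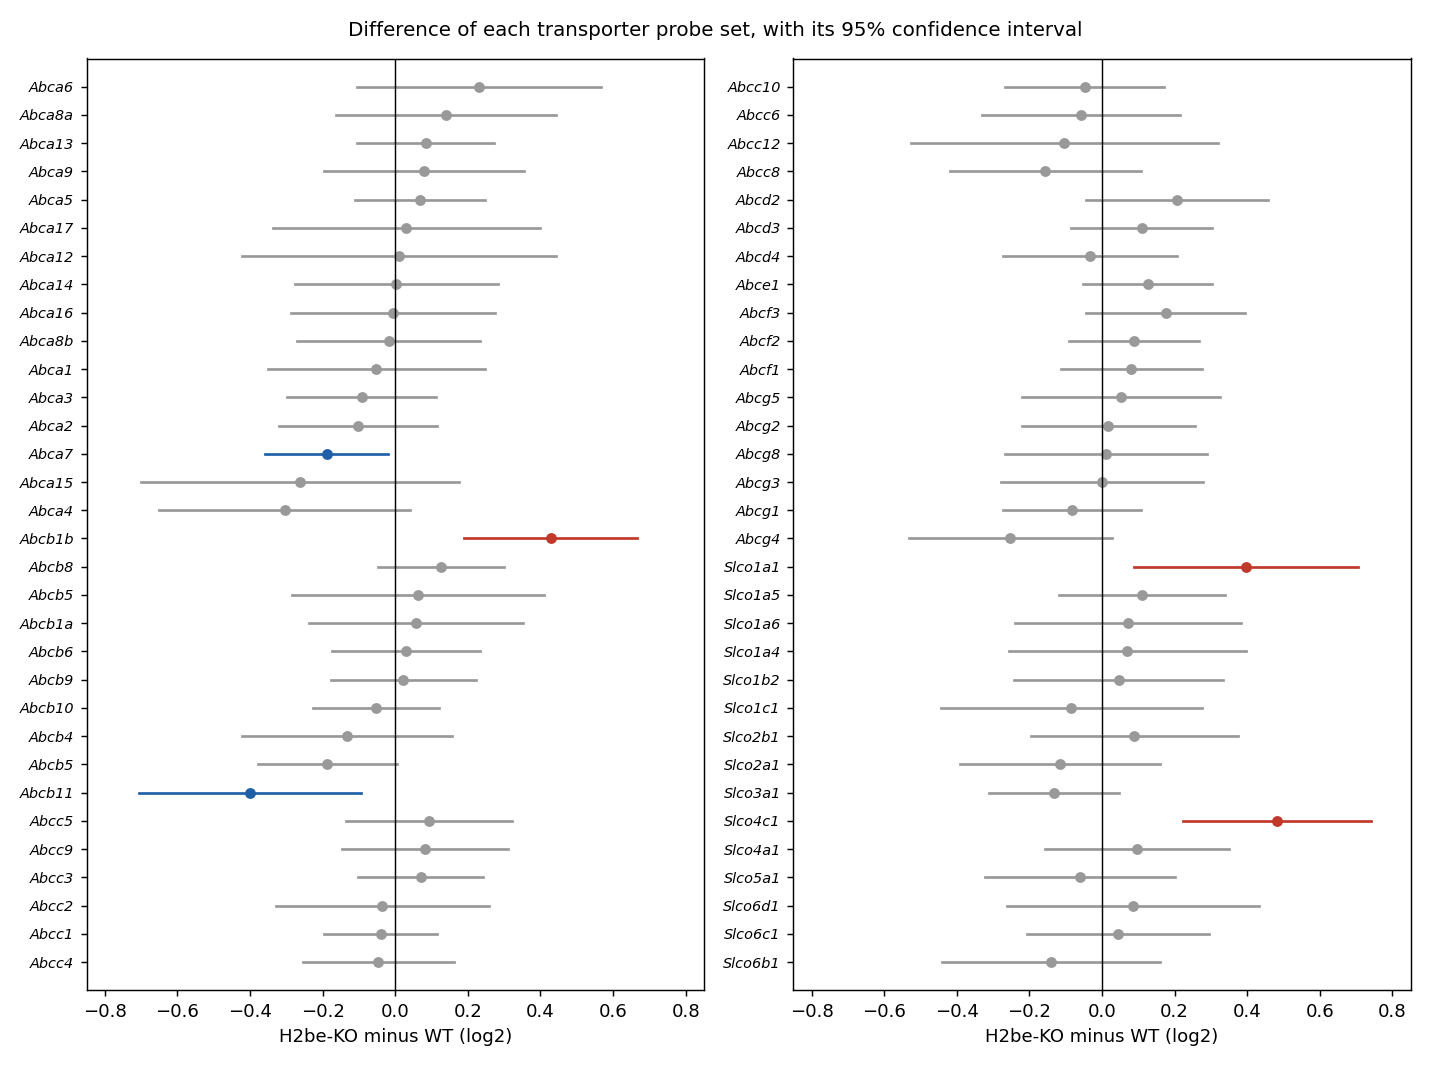
H2be-KO minus WT log2 difference (x axis) of each of the 64 probe sets by family, with its 95% confidence interval from limma; red marks the 3 that rose, blue the 2 that fell and grey the 59 that did not pass. Most points lie within 0.2 of 0, and the called members stand at 0.48 (Slco4c1), 0.43 (Abcb1b), 0.40 (Slco1a1), -0.19 (Abca7) and -0.40 (Abcb11).

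Members also varied between arrays of the same genotype. Of the 64 probe sets, 7 were lowest in replicate 2 of both genotypes (Abca1, Abca9, Abca16, Abcb1a, Abcg1, Abcg2 and Slco1a4) and 5 were highest there, while replicate 4 was the lowest for 7 and the highest for 4. Abcb1a, Abcg2, Abca1 and Slco1a4 are given with their values, chosen after these were seen. In replicate 2 Abcb1a read 7.63 in H2be-KO and 7.58 in WT, Abcg2 read 8.06 and 8.02, Abca1 read 8.11 and 8.02, and Slco1a4 read 6.82 and 6.54. Slco1c1, the thyroxine carrier of brain vessels, was the lowest there in neither genotype (5.60 in H2be-KO, and 5.49 in WT, below the WT median of 5.64). The mean of 10 endothelial markers was lowest there too, at 7.15 in H2be-KO replicate 2 and 7.20 in WT replicate 2, against 7.37 to 7.66 and 7.50 to 7.73 in the other H2be-KO and WT arrays. The means of gland markers (9.35 in both) and macrophage markers (7.82 in H2be-KO, 7.83 in WT) were also lowest in these arrays, and that of mature neuron markers was highest (10.91 in H2be-KO, 10.84 in WT). What these cell types contribute to the transporter signals was not tested.

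Across the 12 arrays Abcg2 correlated with the endothelial mean (Pearson r = 0.889, permutation p = 0.00031, adjusted over 640 relations 0.0592; Spearman rho = 0.853, permutation p = 0.00086, adjusted 0.128). The correlation was 0.656 without H2be-KO replicate 2 and WT replicate 2, the arrays farthest from the median, 0.866 within H2be-KO and 0.938 within WT. For Abca1, r was 0.869 (permutation p = 0.00068, adjusted 0.0731; rho 0.643, permutation p = 0.028, adjusted 0.460) and 0.679 without those arrays. For Abcb1a, r was 0.839 (permutation p = 0.00207, adjusted 0.120; rho 0.636, permutation p = 0.0303, adjusted 0.460) and 0.404 without them, so this relation rested on those arrays. None of the 3 passed the adjustment, nor did any other member with the endothelial mean, Slco1a4 included. The correlation of Slco1a4, the other gene picked for its low value in replicate 2, is not given here. In WT replicate 4, where the endothelial mean was highest (7.73), Slco1a4 read 6.92, the lowest WT value but that of replicate 2.

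In arrays 4 to 6 the correlation with the endothelial mean was 0.533 for Abcg2, 0.876 for Abca1 and -0.40 for Abcb1a, and in arrays 1 to 3 it was 0.918, 0.869 and 0.967.

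**Figure D4:**
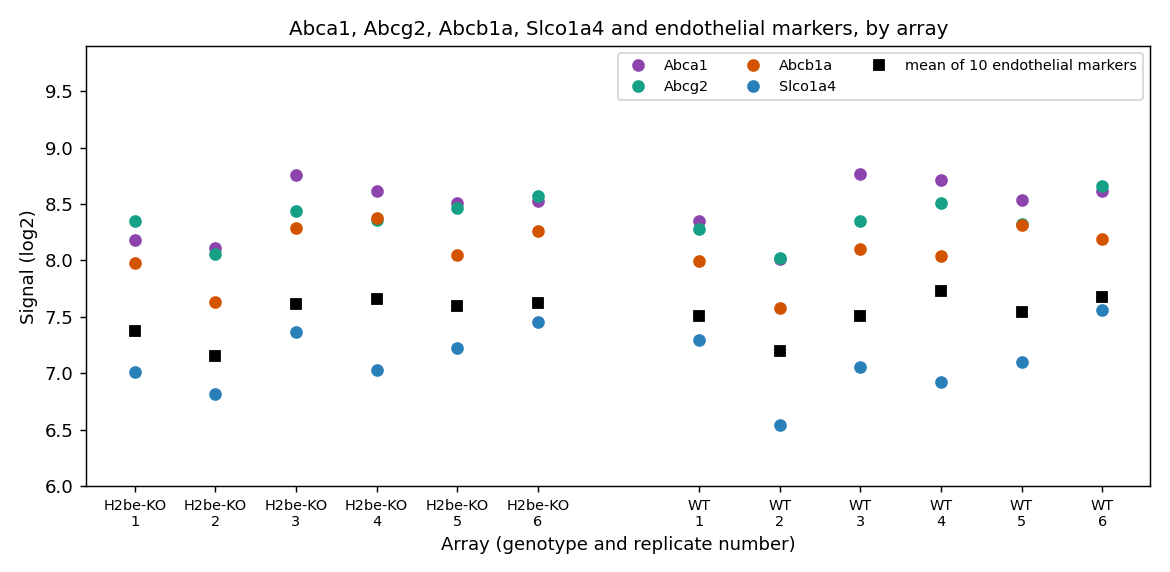
Log2 signal (y axis) of Abca1, Abcg2, Abcb1a and Slco1a4 and the mean of 10 endothelial markers (black squares) in each array, H2be-KO replicates 1 to 6 left and WT replicates 1 to 6 right. All 5 are lowest in replicate 2 of each genotype.

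Marker lists of cell types were set beside the genotype difference, and their part in the results was not tested. Of 10 lists, 7 held no call. Lower in H2be-KO were Foxi1 of ionocytes (1 of 6 genes of that list, -0.20) and Mmp20 of the tooth list (1 of 6, -0.46). Higher was Lum of fibroblasts (1 of 6, 0.24). The other genes of the tooth and ionocyte lists went both ways, and none passed in limma. In the tooth list Amtn and Dspp were lower and Amelx, Ambn and Enam higher, with a mean difference of 0.21 over the list. In the ionocyte list Coch, Ascl3 and Trpm5 were lower and Cftr and Pou2f3 higher, with a mean difference of -0.05. The fibroblast mean was 10.62 to 10.79 in H2be-KO and 10.29 to 10.72 in WT, and the endothelial mean was 7.15 to 7.66 and 7.20 to 7.73.

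Regulators of transporter genes, which include the xenobiotic sensors and the sterol receptors, gave 1 call of 15 probe sets. Beside this count and those of the other gene lists, 5.55% of all probe sets tested were called, 3.78% higher and 1.77% lower. The counts of the lists were not tested against that share. Arnt, the partner of the dioxin receptor, averaged 8.82 in H2be-KO and 8.59 in WT, a rise of 0.23 (exact permutation p = 0.0303). The dioxin receptor Ahr averaged 8.57 in H2be-KO and 8.54 in WT, and the pregnane sensor Nr1i2 averaged 6.45 and 6.60. Other carriers of organic anions, cations and bile acids gave 2 calls of 26, both lower. They were the peptide carrier Slc15a1 (6.71 in H2be-KO, 6.96 in WT) and the amino acid carrier Slc7a5 (10.09 in H2be-KO, 10.34 in WT).

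ABC genes that carry other symbols were Tap1, Tap2 and Cftr, of which Tap1 fell. Tap1, which moves peptides into the endoplasmic reticulum for antigen presentation, averaged 7.75 ± 0.22 in H2be-KO and 8.16 ± 0.15 in WT (SD, n = 6 each), a fall of 0.40 on the log2 scale (SE 0.11, exact permutation p = 0.0065). Its partner Tap2 averaged 8.17 in H2be-KO and 8.32 in WT. For Tap2 the tests disagreed, since limma did not call it but the exact test passed it (exact permutation p = 0.0455). Of 15 probe sets for partners of the members, 1 of 2 for Hbs1l, a ribosome rescue factor, was higher (0.16), and Pdzk1, a scaffold that anchors transporters, fell by 0.33. The other and brighter Hbs1l probe set differed by 0.05 and did not pass.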

How the data were processed

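The authors measured RNA of whole MOE on the Affymetrix type Mouse Gene 1.0 ST, screened the scanner files for outliers, and summarised probe sets with IterPLIER and sketch-quantile normalization in Affymetrix Expression Console. No tool versions were given in the sources used here. Log2 signals were deposited after the sketch-quantile normalization, so a change common to most transcripts was removed before deposition. Groups came from the titles. Of 35556 probe sets, 6612 controls were left out. Symbols came from the platform annotation, and 63 of 63 member genes matched RefSeq (GRCm38.p6). Array numbers limit the precision.

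Probe sets with a mean above log2 5 (28151) were fitted in R 4.3.3 with limma 3.58.1 (lmFit, eBayes, genotype as the only term), tested on simulated data. A call was an unadjusted p under 0.05, the level at which the study counted transcripts, and Benjamini-Hochberg values were taken over all probe sets tested. Standard errors and intervals are limma's. Single values carry a two-sided exact permutation p, whose smallest value was 0.00216, computed in Python 3.11.15. Arrays are separate pools, and nothing else tells whether they share litters or days.

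Members and gene lists were chosen with earlier results of these data known. Named with values were called members, the 10 brightest, the brightest of each family, 19 chosen for their role, and the 5 dimmest, 37 in all. Others are named where a sentence says so or as genes of the lists. Alternatives covered the filter, a floor, scaling, the replicate number, Y-linked signal, array weights, moderation, averaging by symbol, an exact test and each array left out. Chosen after seeing the data were the arrays without high Amelx and the separate fits of arrays 1 to 3 and 4 to 6. Marker correlations used 100000 permutations.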

Additional observations from a re-analysis of the deposited data

Results flagged for a closer look

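Single arrays stood apart from the other 5 of their genotype in 7 of 74 sets of 6 arrays for the 37 named members (by the ratio of its gap to the nearest array over the range, at the 95% level of Dixon). Chance alone gives about 1 such set in 20. Of the 7 arrays, 4 were WT replicate 4. This array was lowest for Slco1a5 (9.10, next 9.54) and Abcf2 (9.10, next 9.40), and highest for Abcc4 (9.79, next 9.44) and Slco2a1 (8.70, next 8.24). H2be-KO replicate 4 was highest for Abcc3 (9.67, next 9.48) and H2be-KO replicate 5 for Slco6b1 (5.66, next 5.23). H2be-KO replicate 2 was lowest for Abcb1b (6.03, next 6.33), the only called member concerned.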

How the results depend on the processing

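All 5 called members kept their direction under each of the 25 alternatives. Slco4c1 passed in 25 of them, Abcb1b in 24, Slco1a1 and Abcb11 in 23 and Abca7 in 18. The filter, the moderation, the replicate block and, for these genes, averaging by symbol leave the difference itself unchanged, so its direction was fixed there. The other alternatives reuse the same arrays, so these counts are not counts of separate tests. Over all 37 named members, 852 of 920 values kept their side of the threshold and, where called, their direction, 12 lost the call, 6 gained one (Abcd2 in 4 fits, the replicate block among them, and Abcb4 in 2) and 50 differences that were not called changed sign. Of the members, 3 were higher and 2 lower. The count higher was 5 with the replicate block, 5 with array weights and 3 to 5 with an array left out (5 without WT replicate 6). The count lower was 5 with the replicate block, 4 with array weights, 1 in arrays 1 to 3, 0 without the H2be-KO arrays with high Amelx (2 higher there, limma unadjusted p) and 1 to 6 with an array left out (1 without H2be-KO replicate 6 or WT replicate 2, 4 without WT replicate 3, 6 without WT replicate 6). The median of the members stayed between 0.002 and 0.026 with an array left out. Of all probe sets, 1065 were higher, against 2039 with the replicate block, 2694 with array weights, 624 averaged by symbol, 321 in arrays 4 to 6 and 513 to 2265 with an array left out. The count lower was 498, against 899 after quantile normalization, 951 with the replicate block, 1405 with array weights, 329 in arrays 1 to 3, 274 in arrays 4 to 6 and 313 to 1552 with an array left out. Scaling moved the split of calls, with 827 higher and 899 lower after quantile normalization and 815 higher and 699 lower after median centring. The cause of these changes was not tested. With the filter at log2 6, 57 members stayed, 3 higher and 2 lower. Arrays of the same number correlated at 0.0896, 0.592, 0.393, 0.319, 0.0251 and 0.377 in their deviations. H2be-KO replicates 2, 3, 4 and 6 matched the WT array of their own number best, and replicates 1 and 5 matched WT replicates 2 and 6. The main fit did not take the numbers as pairs, so anything that same-numbered arrays share is left in its errors. The replicate block gives the counts with the number taken in.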

Other observations

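Of 640 relations between a member and the mean of a marker list over the 12 arrays, 1 had an adjusted p under 0.05, and it was named after its value was seen. Abcc8, the sulfonylurea receptor that regulates potassium channels, ran against the mean of 9 sustentacular markers (Pearson r = -0.942, permutation p = 6.0e-05, adjusted 0.0384), while the rank correlation did not pass (Spearman rho = -0.853, permutation p = 0.00099, adjusted 0.128). Abcc8 read 7.46, 7.74 and 8.13 in H2be-KO and 7.61, 8.01 and 8.07 in WT (lowest, median and highest array), so the genotypes overlapped. The correlation was -0.907 without H2be-KO replicates 3 and 6, the arrays farthest from the median, -0.919 within H2be-KO, -0.991 within WT, -0.915 in arrays 1 to 3 and -0.977 in arrays 4 to 6. The sustentacular mean spanned 11.16 to 11.33 in H2be-KO and 11.15 to 11.32 in WT.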
